A study of Mus musculus with 8 samples.

Results

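Glycolysis, lactate handling and the transcriptional response to low oxygen were followed through 32 genes in mouse embryonic stem cells that lack the microRNA cluster miR-290-295 and in the same cells after knockdown of the transcription factor Tfap4. The genes were taken by name: glucose transporters, the enzymes of glycolysis, lactate dehydrogenase subunits and lactate transporters, the gate of pyruvate into the mitochondrion, the oxygen sensor and some of its targets, and the glucose-responsive gene Txnip. All 32 were present among the 55421 gene identifiers of the count table, and all 32 passed the filter on low counts that left 15137 genes for testing. All cells were E14 embryonic stem cells, a line of 129/Ola background derived from a blastocyst, grown in serum with LIF on gelatin. The 4 groups of 2 libraries were untreated wild-type cells (WT), untreated miR-290-295 knockout cells (KO), KO cells given a negative control siPOOL (siNeg), and KO cells given the Tfap4 siPOOL (siTfap4). A siPOOL is a complex mixture of small interfering RNAs against one transcript, here used at 5 nM with harvest after 36 hours. By the series' design text, the WT and KO libraries were handled and sequenced as one set and the 4 siPOOL libraries as another. Each comparison thus stays within a set. KO against WT asks what accompanies loss of the microRNAs. The siTfap4 against siNeg comparison asks what accompanies a lowered Tfap4 level in cells that already lack the microRNAs. The titles of the WT and KO libraries also carry suffixes that the labels do not explain, one of them shared by WT replicate 1 and KO replicate 2, and whether these mark batches is not stated. The siPOOL was not given to wild-type cells in these libraries, and how many clones the KO line comprises is not given in the sources used here.

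Glycolysis splits glucose into pyruvate in the cytosol, and lactate dehydrogenase turns pyruvate into lactate, which leaves the cell with a proton through monocarboxylate transporters. Pluripotent stem cells are known for a high glycolytic flux even when oxygen is present. The hypoxia-inducible factors raise transcription of many of these genes when the prolyl hydroxylases that mark HIF1A for destruction run short of oxygen, and the MYC family drives an overlapping set. MicroRNAs of the miR-290-295 cluster have been reported to favour glycolysis in stem cells by limiting Mbd2, whose product represses Myc, with Pkm and Ldha named as downstream enzymes.

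The knockout removes a family of microRNAs that share the core of their seed, and 5 of the mature 3p strands are shown because their seed defines which transcripts they can pair with. Sequences are from RefSeq (GRCm38.p6, chromosome 7, plus strand), written 5′ to 3′, with the seed (bases 2 to 8) in capitals.
miR-290a-3p: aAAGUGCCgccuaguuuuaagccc
miR-291a-3p: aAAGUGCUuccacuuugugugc
miR-291b-3p: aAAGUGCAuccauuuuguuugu
miR-294-3p: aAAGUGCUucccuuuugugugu
miR-295-3p: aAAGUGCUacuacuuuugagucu
The seeds of miR-291a-3p, miR-294-3p and miR-295-3p are identical, and those of miR-290a-3p and miR-291b-3p differ from them in the last seed base alone.

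Library totals lay between 8326675 and 12726123 counts, and 19271 to 21183 genes had at least 1 count. Levels are CPM, a gene's counts scaled to its library's effective size, which is the total over the tested genes times the library's TMM factor (0.944 to 1.04), and are thus relative abundances. These are 3′ end counts, in which a transcript gives reads from its end whatever its length. Tfap4 itself stood at 19.7 and 16.4 CPM (WT), 49.0 and 42.1 (KO), 34.4 and 37.4 (siNeg) and 12.4 and 15.8 (siTfap4). It rose with the knockout (log2 fold change 1.33 ± 0.26 SE, adjusted p = 0.00363) and fell with its siPOOL (−1.35 ± 0.27 SE, adjusted p = 0.00365). The summed level of 10 stem cell markers ranged from 3741 to 4060 CPM in WT and KO, was 3754 and 3587 in siNeg, and was 2821 and 2868 in siTfap4. A list of 11 endoderm markers summed to 318 and 299 CPM in WT and to 74.7 to 129 in the other 6 libraries. A list of 8 fibroblast or feeder markers summed to 7.67 to 54.6 CPM with 2 of them at 0 throughout, and 5 blood markers to 10.7 to 17.7 CPM with 1 at 0 throughout. The part of these marker differences in the results below was not tested.

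For counts taken at 3′ ends, a gene whose end recurs in other genes or in retrocopies can gain or lose reads. Gapdh and Eno1 are uncertain for this reason. Between 85.9% and 100% of the 31-base words in each annotated Gapdh end occurred in other annotated genes, 58 genes shared at least 50% of one of its ends, and these together held 37 to 140 counts per library against 143 to 1623 for Gapdh. Eno1 ends were shared to 98.2% or more. At least 1 annotated end was shared to 65.3% in Gpi1, 76.5% in Tpi1, 75.3% in Aldoa, 81.8% in Pkm, 100% in Ldha and 52.9% in Ldhb, where the sharing genes held between 0 and 17 counts per library. No shared word was found in any annotated end of Txnip, Slc2a1, Pgam1, Pfkl, Slc16a3 or Dlat. Genes on the opposite strand cover the annotated end of Tpi1 (Spsb2, 28 to 72 counts), Hif1a (Gm15283, 12 to 92), Pfkp (Pitrm1, 258 to 992), Gapdh (Iffo1, 39 to 61), Pdha1 (Map3k15, 8 to 68), Ankrd37 (Ufsp2, 173 to 413) and Txnip (Gm15441, 0 to 10). The strand setting of the counting is not given in the sources used here.

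In KO against WT, 1 of the 32 genes passed an adjusted p of 0.05: Pgam1, which fell. Over all tested genes 9.95% passed, 5.99% by rising and 3.96% by falling. The median log2 fold change was −0.01 over the 32 genes and −0.01 over all genes, 16 of the 32 were positive, and the WT and KO values did not overlap for 17 of the 32, against 57.5% of all genes. In siTfap4 against siNeg, 9 of the 32 passed (28.1%), where the share over all genes was 15.4%. Because the 32 genes were chosen with earlier results of these data known, the higher share is no independent finding. The 4 that rose were Pgam1, Slc16a3, Gpi1 and Pfkl, where 4.36% of all genes rose, and the 5 that fell were Txnip, Gapdh, Slc2a1, Tpi1 and Dlat, where 11.1% fell. The median was 0.10 over the 32 genes and 0.01 over all genes, and the siNeg and siTfap4 values did not overlap for 23 of 32, against 58.3% of all genes. With library totals in place of the TMM scaling, the 9 became 6, of which 1 rose and 5 fell. In these bulk libraries, fewer cells of a type and less RNA per cell cannot be told apart.

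**Figure D1:**
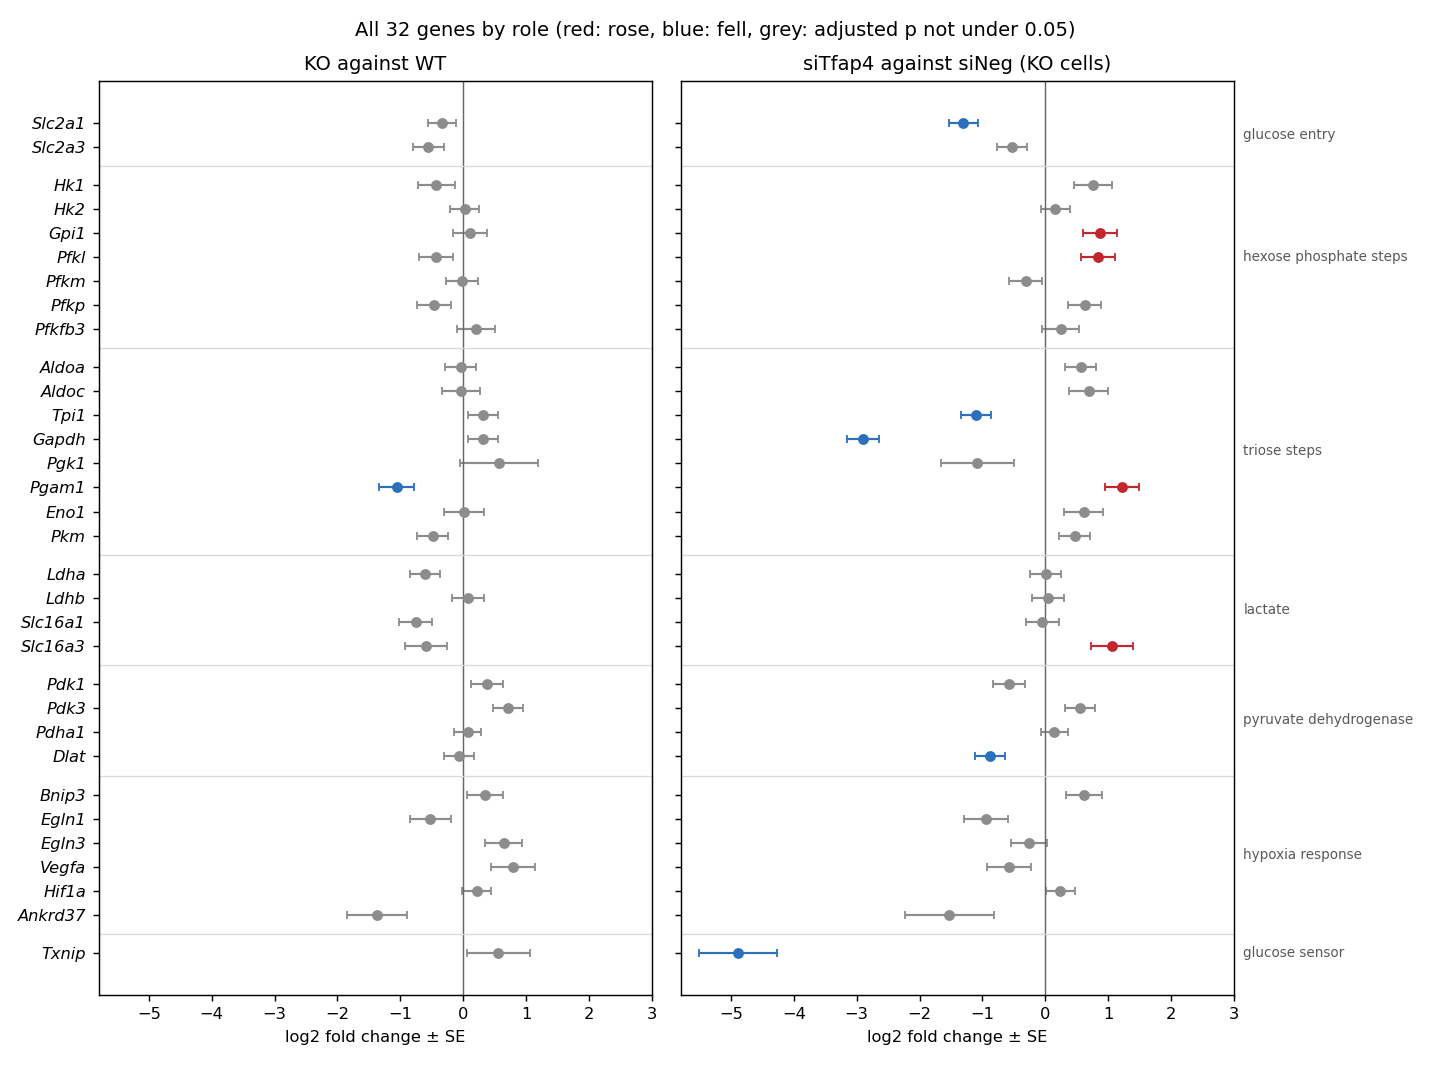
Log2 fold change with its standard error for all 32 genes, ordered by role, in KO against WT (left) and siTfap4 against siNeg (right), each from 2 libraries a group. Red marks genes that rose, blue genes that fell and grey genes that did not pass. On the left Pgam1 alone is coloured; on the right 4 are red and 5 blue, with Txnip at −4.88 and Gapdh at −2.90 farthest from 0.

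Txnip gave the largest change of the set. Its product, thioredoxin-interacting protein, binds thioredoxin and lowers glucose uptake by promoting removal of glucose transporters from the cell surface, and its transcription follows glucose supply through the MLX and MondoA factors. Txnip (chr3:96557957-96561883, plus strand, GRCm38) stood at 366 and 278 CPM in siNeg and at 8.79 and 13 CPM in siTfap4, which are 69 and 110 counts. Both siTfap4 libraries lay far below both siNeg libraries, a 29.5-fold fall (log2 fold change −4.88 ± 0.62 SE, adjusted p = 0.000691). Among 8636 genes with a mean of at least 10 CPM, this was the 10th largest fall. In the untreated set Txnip was 134 and 471 CPM in WT and 606 and 287 in KO. These values overlapped, with the WT pair more than 3-fold apart, and the change did not pass (0.56 ± 0.50, adjusted p = 0.574). Without the higher WT library (replicate 2) the KO against WT change was 1.74 with an adjusted p of 0.0224, so that library decides the call.

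Partners of Txnip came from a separate list of 8 genes for TXNIP and glucose sensing. Txn1, the cytosolic thioredoxin that TXNIP binds, stood at 671 and 449 CPM in siNeg and 67.5 and 156 in siTfap4, and fell (−2.32 ± 0.33, adjusted p = 0.000328). Arrdc3, an arrestin-domain relative of Txnip, was 11.6 and 17.6 CPM (WT), 39.5 and 39.3 (KO), 29.3 and 28.3 (siNeg) and 11.3 and 15.2 (siTfap4). It rose with the knockout (1.43 ± 0.28, adjusted p = 0.00376) and fell with the Tfap4 siPOOL (−1.11 ± 0.29, adjusted p = 0.0173). The other 6 genes of that list did not pass in either comparison: the relative Arrdc4, the transcription factor genes Mlx, Mlxip and Mlxipl, and Txn2 and Txnrd1. In counts, 1 of 8 passed in KO against WT, by rising, where 5.99% of all genes rose, and 2 of 8 in siTfap4 against siNeg, both by falling, where 11.1% fell.

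Of the glucose transporters, Slc2a1 (GLUT1; chr4:119108711-119137983, plus strand) fell with the Tfap4 siPOOL. It stood at 451 and 375 CPM in siNeg and 172 and 162 in siTfap4, a 2.47-fold fall (−1.31 ± 0.23, adjusted p = 0.00129). The siTfap4 libraries were the 2 lowest of the 8, since WT held 410 and 482 CPM and KO 376 and 327, where the change was −0.34 ± 0.22 (adjusted p = 0.389). Slc2a3 (GLUT3, the high-affinity transporter) was 667 and 657 CPM (WT), 507 and 394 (KO), 389 and 380 (siNeg) and 212 and 320 (siTfap4). Neither of its changes passed, at −0.56 ± 0.24 (adjusted p = 0.176) and −0.53 ± 0.24 (adjusted p = 0.151), and in both comparisons the 2 groups did not overlap.

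The steps from glucose to fructose bisphosphate comprised 7 genes. Of these, 2 rose with the Tfap4 siPOOL, where 4.36% of all genes rose. None passed in KO against WT, where 9.95% of all genes passed. Gpi1, which interconverts glucose and fructose phosphates (chr7:34201330-34230336, minus strand), was 279 and 301 CPM in siNeg and 656 and 407 in siTfap4, and rose 1.83-fold (0.87 ± 0.27, adjusted p = 0.0403). In the untreated set Gpi1 was 181 and 284 CPM in WT and 273 and 230 in KO, an overlap (0.11 ± 0.27, adjusted p = 0.857). Pfkl, the liver-type phosphofructokinase subunit (chr10:77986947-78010083, minus strand), was 154 and 108 CPM in siNeg and 278 and 193 in siTfap4, and rose 1.80-fold (0.85 ± 0.27, adjusted p = 0.0445). In WT it was 116 and 164 CPM and in KO 116 and 91.0, with a log2 fold change of −0.44 ± 0.27 (adjusted p = 0.362). Both rises stand close to the threshold: Gpi1 passed under 9 and Pfkl under 10 of the 19 alternative settings, and in both genes the higher value came from siTfap4 replicate 1.

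Among the remaining genes of these steps, Hk1, a mitochondria-bound hexokinase, was 36.4 and 37.5 CPM in siNeg and 72.6 and 52.8 in siTfap4 (0.76 ± 0.30, adjusted p = 0.094). Pfkp, the platelet-type subunit, was 295 and 249 CPM in siNeg and 532 and 309 in siTfap4 (0.63 ± 0.26, adjusted p = 0.119). Hk2, the hexokinase most often linked to hypoxia and among the 3 genes of the set with the highest mean level, was 435 and 394 CPM (WT), 401 and 441 (KO), 611 and 484 (siNeg) and 685 and 541 (siTfap4). Its groups overlapped in both comparisons, with log2 fold changes of 0.02 ± 0.23 and 0.16 ± 0.23. Pfkm, the muscle-type subunit (17.9 to 28.4 CPM), and Pfkfb3, which makes the activator of phosphofructokinase (8.24 to 18.0 CPM), did not pass in either comparison.

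The steps from fructose bisphosphate to pyruvate comprised 8 genes, and members moved in opposite directions with the Tfap4 siPOOL. Here 1 rose and 2 fell, where 4.36% of all genes rose and 11.1% fell. Pgam1, phosphoglycerate mutase (chr19:41911923-41918660, plus strand), was the one gene of the 32 that passed in both comparisons. It stood at 80.6 and 90.6 CPM in WT and 45.9 and 36.2 in KO, a 2.08-fold fall (−1.06 ± 0.27, adjusted p = 0.0205). In the siPOOL set it was 46.0 and 36.8 CPM in siNeg and 120.0 and 72.8 in siTfap4, a 2.33-fold rise (1.22 ± 0.27, adjusted p = 0.00776). No library of the lower group reached the higher one in either comparison. The fall in KO lost its call whenever a WT or KO library was left out, with adjusted p-values from 0.0518 to 0.219 and log2 fold changes from −1.24 to −0.89. The rise lost its call without siNeg replicate 2 (adjusted p = 0.0597) and without siTfap4 replicate 1 (adjusted p = 0.142).

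Gapdh, glyceraldehyde phosphate dehydrogenase (chr6:125161715-125166467, minus strand), was 48.3 and 45.6 CPM (WT), 63.7 and 53.2 (KO), 139 and 122 (siNeg) and 18.2 and 16.9 (siTfap4). Within the siPOOL set it fell 7.44-fold (−2.90 ± 0.25, adjusted p = 4.74e-06), the 89th largest fall among the 8636 genes. In KO against WT the change was 0.32 ± 0.23 (adjusted p = 0.459). Because Gapdh ends are shared as described, the value is of the reads assigned to this identifier. With the counts of the 4 genes that share its main end added, the fall was −2.56. Reads left out for matching several places would be in no count, so this sum cannot restore them. How such reads were treated is not given in the sources used here, so the level of Gapdh and its fall are uncertain. Tpi1, triose phosphate isomerase (chr6:124810586-124814296, minus strand), was 234 and 251 CPM in siNeg and 106 and 121 in siTfap4, and fell 2.14-fold (−1.10 ± 0.24, adjusted p = 0.00639). Its WT values were 127 and 139 CPM and its KO values 196 and 135, which overlapped (0.32 ± 0.24, adjusted p = 0.470).

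Aldoa, the main aldolase, had the highest mean level of the set: 783 and 969 CPM (WT), 923 and 783 (KO), 1002 and 1120 (siNeg) and 1841 and 1291 (siTfap4). The siTfap4 values lay above siNeg without passing (0.56 ± 0.24, adjusted p = 0.131), and WT and KO overlapped. Aldoc (21.5 to 56.2 CPM), Eno1 (30.5 to 122 CPM, with its end shared) and Pkm, pyruvate kinase (280 to 675 CPM), had positive log2 fold changes of 0.69, 0.61 and 0.47 in siTfap4 against siNeg, none of which passed. Pkm was 369 and 445 CPM in WT and 302 and 280 in KO, which did not overlap, with a log2 fold change of −0.49 ± 0.25 (adjusted p = 0.251). Pgk1, phosphoglycerate kinase, held 12 to 83 counts per library (1.42 to 7.11 CPM), the lowest mean level of the set. No word of its annotated end recurred in other annotated genes, but copies outside the annotation were not searched and the treatment of reads with several matches is not given in the sources used here, so its level is uncertain. The siNeg libraries held 83 and 22 counts, and the log2 fold changes of 0.58 ± 0.62 and −1.08 ± 0.58 did not pass.

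**Figure D2:**
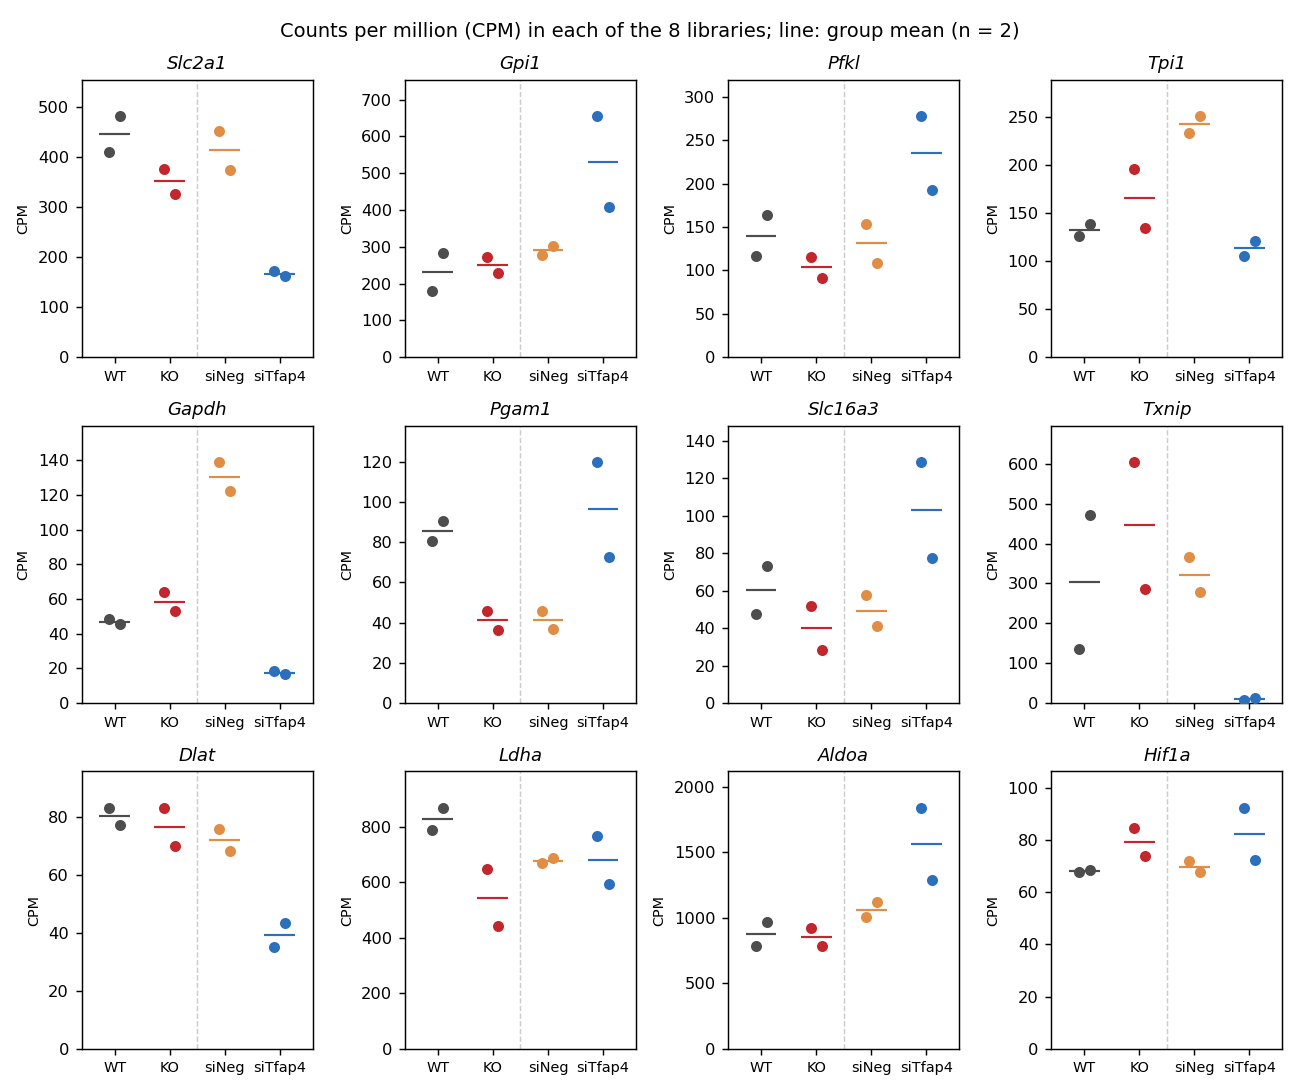
CPM in each of the 8 libraries (points) and group means (lines) for the 9 genes that passed in either comparison and for Ldha, Aldoa and Hif1a; each vertical axis starts at 0, and the dashed line parts the 2 sets. The siTfap4 points of Txnip (8.79 and 13) and Gapdh (18.2 and 16.9) lie below every other library, and in Gpi1, Pfkl, Pgam1, Slc16a3 and Aldoa the upper siTfap4 point is replicate 1.

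Lactate handling was represented by 4 genes. Of these, 1 rose with the Tfap4 siPOOL, where 4.36% of all genes rose. None passed in KO against WT, where 9.95% of all genes passed. Slc16a3, the lactate exporter MCT4 (chr11:120948480-120960868, plus strand), was 57.4 and 41.0 CPM in siNeg and 129 and 77.3 in siTfap4, a 2.09-fold rise (1.06 ± 0.33, adjusted p = 0.0426). It was 47.4 and 73.3 CPM in WT and 51.9 and 28.1 in KO, which overlapped (−0.59 ± 0.33, adjusted p = 0.315). Slc16a1, the bidirectional transporter MCT1, was 81.8 and 103 CPM in WT and 59.7 and 49.7 in KO, without overlap (−0.75 ± 0.26, adjusted p = 0.0833), and was 56.4 and 38.2 in siNeg and 51.7 and 40.1 in siTfap4. Ldha, the lactate dehydrogenase subunit that favours lactate formation, was 788 and 869 CPM (WT), 646 and 441 (KO), 668 and 685 (siNeg) and 765 and 592 (siTfap4). WT and KO did not overlap for Ldha but the change missed the threshold (−0.61 ± 0.24, adjusted p = 0.137). In siTfap4 against siNeg the log2 fold change of Ldha was 0.00 ± 0.24, with its sign depending on the processing. Ldhb, the subunit that favours lactate use (145 to 259 CPM), overlapped between groups in both comparisons.

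Entry of pyruvate into the citric acid cycle was followed through 2 subunits of pyruvate dehydrogenase and 2 of the kinases that switch it off. Dlat, the acetyltransferase core (chr9:50634633-50659780, minus strand), was 76.1 and 68.4 CPM in siNeg and 35.0 and 43.5 in siTfap4, and fell 1.84-fold (−0.88 ± 0.24, adjusted p = 0.0222). With a correction for GC of the last 100 bases, the adjusted p of this fall was 0.0938, and 0.0833 with the replicate block as well. In the untreated set Dlat was 83.3 and 77.2 CPM in WT and 83.3 and 70.2 in KO, an overlap. Pdha1, the catalytic subunit, lay between 188 and 236 CPM in all 8 libraries, with log2 fold changes of 0.07 ± 0.21 and 0.14 ± 0.22. Pdk1, a kinase gene that HIF1 is known to raise, was 266 and 271 CPM in siNeg and 179.5 and 179.8 in siTfap4 (−0.58 ± 0.26, adjusted p = 0.134). Pdk3 was 50.5 and 39.8 CPM in WT and 78.5 and 70.3 in KO (0.72 ± 0.24, adjusted p = 0.07), and 59.4 and 72.5 in siNeg and 100.3 and 92.2 in siTfap4 (0.55 ± 0.24, adjusted p = 0.131). Its groups did not overlap in either comparison.

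The hypoxia response was represented by 6 genes, none of which passed in either comparison, where 9.95% and 15.4% of all genes passed. Hif1a, the oxygen-regulated subunit, was 67.9 and 68.5 CPM (WT), 84.7 and 73.7 (KO), 71.8 and 67.7 (siNeg) and 92.4 and 72.3 (siTfap4), with log2 fold changes of 0.22 ± 0.23 and 0.24 ± 0.23. HIF1A is regulated mainly through the stability of its protein, which these counts do not measure. The target genes did not share a direction: in KO against WT, Vegfa (0.79 ± 0.35), Egln3 (0.64 ± 0.29) and Bnip3 (0.34 ± 0.29) were positive, and Egln1 (−0.52 ± 0.33) and Ankrd37 (−1.37 ± 0.48) negative. In siTfap4 against siNeg, Bnip3 was positive (0.61 ± 0.28), and Egln3 (−0.26 ± 0.29), Vegfa (−0.58 ± 0.35), Egln1 (−0.94 ± 0.35) and Ankrd37 (−1.53 ± 0.70) were negative. Ankrd37, an ankyrin-repeat gene induced by hypoxia, was at 6.01 and 9.21 CPM (WT), 4.36 and 1.40 (KO), 2.66 and 3.39 (siNeg) and 0.38 and 1.65 (siTfap4). Its adjusted p-values were 0.0856 and 0.152, and without KO replicate 1 its KO against WT change was −2.42 with an adjusted p of 0.0353.

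The 2 comparisons share no library, so the difference between a gene's change in KO against WT and its change in siTfap4 against siNeg could be tested. It passed for 7 of the 32 genes, where 15.9% of all genes passed: Gapdh, Pgam1, Txnip, Tpi1, Slc16a3, Pfkl and Slc2a1. The difference was negative for Pgam1 (−2.28 ± 0.39, adjusted p = 0.00118), Slc16a3 (−1.65 ± 0.47, adjusted p = 0.0277) and Pfkl (−1.28 ± 0.38, adjusted p = 0.0323). Their log2 fold changes were negative in KO against WT, where the Slc16a3 values overlapped, and positive in siTfap4 against siNeg. Of these, Pgam1 alone passed in both single comparisons. The difference was positive for Txnip (5.44 ± 0.79, adjusted p = 0.00163), Gapdh (3.21 ± 0.34, adjusted p = 3.32e-05), Tpi1 (1.41 ± 0.34, adjusted p = 0.0105) and Slc2a1 (0.96 ± 0.32, adjusted p = 0.0491). In Slc2a1 both changes were negative. Of 18 alternatives the test passed under 10 for Slc2a1 (adjusted p up to 0.214), 12 for Pfkl (up to 0.149), 13 for Slc16a3 (up to 0.142), 17 for Tpi1 (0.0986 without KO replicate 1), 17 for Txnip (0.0637 without a filter on low counts), and all 18 for Gapdh and Pgam1. The call was lost without any one of the libraries except siNeg replicate 2 for Slc2a1; without WT replicate 2, either KO library, siNeg replicate 2 or siTfap4 replicate 1 for Pfkl; and without WT replicate 2, KO replicate 2, either siNeg library or siTfap4 replicate 1 for Slc16a3. Over the 32 genes, 16 (50%) had opposite signs in the 2 comparisons, and over all tested genes 51.6% did.

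**Figure D3:**
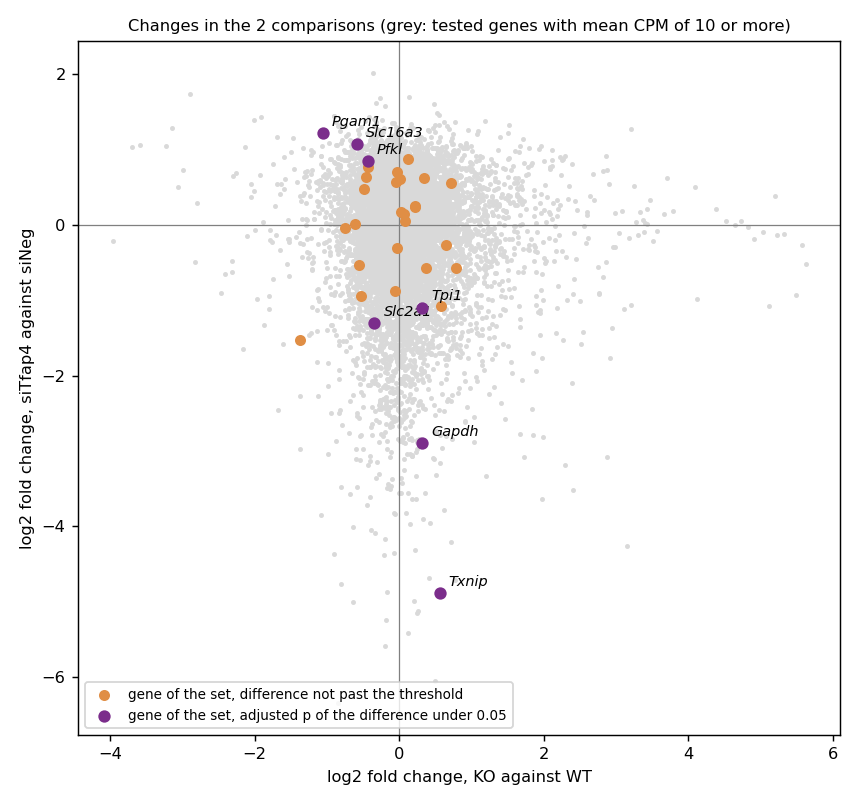
Log2 fold change in KO against WT (horizontal) and in siTfap4 against siNeg (vertical) for the 32 genes, over tested genes with a mean of at least 10 CPM in grey. Purple points are the 7 genes whose 2 changes differ with an adjusted p under 0.05; Pgam1 lies at −1.06 and 1.22, Txnip at 0.56 and −4.88.

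The fits without single libraries separated the 9 genes called in siTfap4 against siNeg. Txnip, Gapdh and Slc2a1 passed under all 19 alternatives, with log2 fold changes from −5.21 to −4.37, −3.28 to −2.56 and −1.69 to −1.18. Tpi1 passed under 18, Pgam1 under 17, Slc16a3 and Dlat under 14. Without siTfap4 replicate 1, 3 genes of the set passed (Txnip, Gapdh and Slc2a1), none of them a rise, and the calls over all genes went from 2334 to 522. Without siTfap4 replicate 2, 13 passed, 7 of them rises, and without siNeg replicate 1, 5 passed. The 2 siTfap4 libraries differed within the set: 24 of the 32 genes were higher in replicate 1, with a median log2 gap of 0.34, where the median gap over all tested genes was 0.01.

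**Figure D4:**
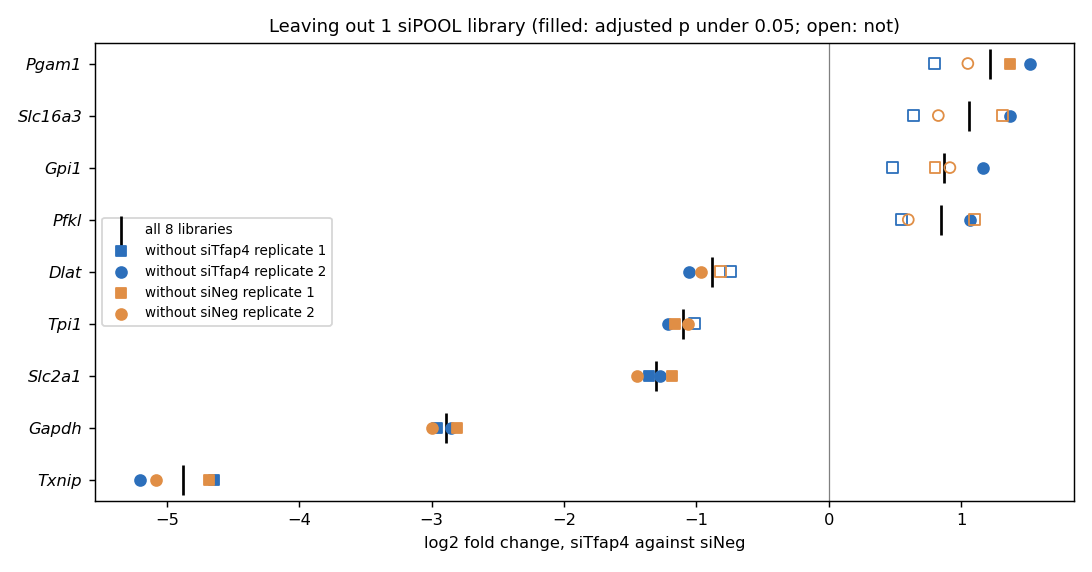
Log2 fold change in siTfap4 against siNeg for the 9 genes called with all 8 libraries (black bars), and with 1 siPOOL library left out (squares for replicate 1, circles for replicate 2); filled symbols have an adjusted p under 0.05 and open symbols do not. Every symbol keeps the sign of its bar, and the open blue squares at Pgam1, Slc16a3, Gpi1, Pfkl, Dlat and Tpi1 are the fits without siTfap4 replicate 1.

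Other genes of these routes, from lists drawn up beside the 32, changed in both directions. Of 17 tested isoforms and side enzymes of glycolysis, 1 passed in KO against WT (5.88%, against 9.95% of all genes) and 2 in siTfap4 against siNeg (11.8%, against 15.4%). Adpgk, the ADP-dependent glucokinase, fell with the Tfap4 siPOOL (44.3 and 17.9 CPM in siNeg, 8.92 and 9.44 in siTfap4, −1.76 ± 0.37, adjusted p = 0.00518), and Eno2, the neuronal enolase, rose from 0.51 and 0.29 to 4.08 and 2.48 CPM (2.96 ± 0.73, adjusted p = 0.0126). Fbp2, a fructose bisphosphatase, fell in KO (−2.29 ± 0.70, adjusted p = 0.048) at levels of 5.77 CPM or less. Of 14 genes for pyruvate entry, 2 passed in each comparison (14.3%, against 9.95% and 15.4% of all genes). In KO against WT, Pck2, mitochondrial phosphoenolpyruvate carboxykinase, rose from 62.3 and 116 CPM in WT to 249 and 258 in KO (1.51 ± 0.28, adjusted p = 0.00245), and Pdp2, the phosphatase that reactivates pyruvate dehydrogenase, fell (−0.85 ± 0.24, adjusted p = 0.0315). With the Tfap4 siPOOL, Dld, the third enzyme of the pyruvate dehydrogenase complex, fell (71.6 and 63.1 to 28.4 and 42.9 CPM, −0.92 ± 0.25, adjusted p = 0.0234) and Pcx, pyruvate carboxylase, rose (1.44 ± 0.35, adjusted p = 0.0116). Dlat and Dld both fell, and the subunit genes Pdha1, Pdhb and Pdhx did not pass. Of 7 tested partners of lactate and proton export, 1 passed in each comparison (14.3%, against 9.95% and 15.4% of all genes). The bicarbonate transporter gene Slc4a7 fell in KO (68.1 and 102 to 35.1 and 40.0 CPM, −1.18 ± 0.26, adjusted p = 0.00844). Car2, a carbonic anhydrase, fell with the Tfap4 siPOOL (−1.22 ± 0.37, adjusted p = 0.0398). Bsg and Emb, which carry the lactate transporters to the membrane, did not pass.

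Of 14 HIF pathway genes 1 passed in KO against WT, by rising (7.14%, against 9.95% of all genes), and 4 in siTfap4 against siNeg, all by falling (28.6%, where 11.1% of all genes fell). Eloc, the elongin C subunit of the ligase that destroys HIF1A, went from 180 and 119 CPM in siNeg to 34.8 and 49.9 in siTfap4 (−1.82 ± 0.27, adjusted p = 0.000325). Cul2, the cullin of that ligase, went from 106 and 87.5 to 20.5 and 45.3 CPM (−1.55 ± 0.31, adjusted p = 0.00362). Arnt, the partner subunit with which HIF1A binds DNA, went from 46.8 and 24.1 to 15.4 and 14.9 CPM (−1.23 ± 0.31, adjusted p = 0.0146). Cited2, which competes with HIF1A for its coactivators, rose in KO (54.4 and 39.9 to 78.1 and 108 CPM, 0.98 ± 0.29, adjusted p = 0.0445) and fell with the Tfap4 siPOOL (−1.32 ± 0.31, adjusted p = 0.00886). Of 32 further tested HIF targets, 2 rose and 4 fell in KO against WT, and 2 rose and 4 fell in siTfap4 against siNeg. That is 18.8% in each comparison, against 9.95% and 15.4% of all genes. The KO rises were Stc2 (2.15 ± 0.31, adjusted p = 0.000373) and Gys1, glycogen synthase (1.37 ± 0.23, adjusted p = 0.00122), and the falls included the collagen-modifying enzymes Plod2 (−1.70 ± 0.30, adjusted p = 0.00171) and P4ha2 (−1.36 ± 0.38, adjusted p = 0.0297). With the Tfap4 siPOOL, the 4 falls included Kdm3a, a histone demethylase (−1.29 ± 0.30, adjusted p = 0.00873). The 2 rises were Hmox1 (1.14 ± 0.30, adjusted p = 0.0192) and Pgm1 (1.12 ± 0.31, adjusted p = 0.0218).

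The route reported to link the microRNAs to glycolysis was measured through a list of 7 genes. Of these, 3 passed in each comparison (42.9%), against 9.95% of all genes in KO against WT and 15.4% in siTfap4 against siNeg. The list was chosen with earlier results of these data known, and of the genes named for the route above Mbd2 alone passed. Mbd2 was 16.5 and 17.4 CPM (WT), 33.9 and 29.4 (KO), 23.7 and 22.4 (siNeg) and 5.10 and 6.61 (siTfap4). It rose with the knockout (0.90 ± 0.26, adjusted p = 0.0388) and fell with the Tfap4 siPOOL (−1.97 ± 0.30, adjusted p = 0.000443). Mycn rose (1.14 ± 0.33, adjusted p = 0.0362) and fell (−1.24 ± 0.33, adjusted p = 0.021) in the same order, and Lin28a did the reverse, falling in KO (−0.84 ± 0.24, adjusted p = 0.0357) and rising with the siPOOL (0.81 ± 0.24, adjusted p = 0.0342). Myc, Pkm and Ldha, which with Mbd2 are the genes named for the route above, did not pass in either comparison, nor did Lin28b. Myc was 42.6 and 14.8 CPM (WT), 10.1 and 16.3 (KO), 11.6 and 1.94 (siNeg) and 1.27 and 1.53 (siTfap4). Its replicates lay far apart in WT and in siNeg, so the missing call does not show an unchanged level. Mycn, Lin28a and Lin28b are in the list but not among the genes named above.

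Seed matches of the missing microRNAs were counted in 3′ UTRs, taking the longest one annotated for a gene, as AGCACTT or GCACTTA on the transcript strand, which pair with the seed of miR-291a-3p, miR-294-3p and miR-295-3p or with the 6 seed bases that all 5 strands share, followed by an A. Of the 32 genes, 8 (25.0%) held at least one, against 20.7% of 12785 tested genes with a 3′ UTR: Aldoc, Hk1, Ldha, Pdk1, Pfkp, Slc16a1, Txnip and Vegfa. The 8 had a median KO against WT log2 fold change of −0.23, with 3 positive and 5 negative, and the 24 without had a median of 0.02, with 13 positive and 11 negative. Of these 8 genes none passed in KO against WT. Txnip was the one gene of the set with a pair of matches, shown here because they lie in the gene with the largest change. That change was in siTfap4 against siNeg, where both groups are KO cells that lack these microRNAs. In KO against WT the Txnip change did not pass (0.56 ± 0.50, adjusted p = 0.574). The match is in capitals (GENCODE M21, GRCm38, plus strand).
Txnip match 1 (chr3:96561229-96561257): gtgatgttcttAGCACTTtagcttgtcaa
Txnip match 2 (chr3:96561647-96561675): cactaagccttAGCACTTtgtcctgtgtc
They start at bases 711 and 1129 of a 3′ UTR of 1354 bases.

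Promoter letters were read for 31 of the 32 genes from RefSeq (GRCm38.p6), from 250 bases before each annotated start to 50 after it. CAGCTG, the E-box form that TFAP4 is known to prefer, occurred in 6 of the 31 genes (19.4%) and in 18.3% of 27025 genes: Aldoa, Ankrd37, Gpi1, Hif1a, Pdk1 and Pkm. CACGTG, the form read by MYC and by other E-box factors, also occurred in 6 of 31 (19.4%), against 8.09% of all genes. These were Bnip3, Hif1a, Ldha, Pfkfb3, Pfkm and Slc16a1, none of which passed in either comparison. The shares over all genes include genes that were not tested for expression changes. The hypoxia-response core ACGTG or GCGTG, which overlaps CACGTG, occurred in 28 of 31 (90.3%), against 46.7%. Both strands were searched, and genes with several starts had more than one window. CACGTG holds the core ACGTG, and the 32 genes include known HIF targets. Neither the share of CACGTG nor that of the core is thus an independent finding. The windows of 3 genes are shown 5′ to 3′ on the gene's strand. Txnip is shown as the gene with the largest change, with CACGAG in capitals. Gpi1 is shown as the one called gene with CAGCTG, which is in capitals. Ldha is shown as a lactate gene with many matches and no call, with CACGTG and the hypoxia-response core in capitals.
Txnip (chr3:96557707-96558006, plus strand): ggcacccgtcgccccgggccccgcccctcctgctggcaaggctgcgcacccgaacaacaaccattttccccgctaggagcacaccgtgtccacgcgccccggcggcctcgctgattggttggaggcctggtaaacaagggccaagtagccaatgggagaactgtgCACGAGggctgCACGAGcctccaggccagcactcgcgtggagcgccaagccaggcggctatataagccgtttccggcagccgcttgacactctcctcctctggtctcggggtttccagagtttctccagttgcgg
Gpi1 (chr7:34230287-34230586, minus strand): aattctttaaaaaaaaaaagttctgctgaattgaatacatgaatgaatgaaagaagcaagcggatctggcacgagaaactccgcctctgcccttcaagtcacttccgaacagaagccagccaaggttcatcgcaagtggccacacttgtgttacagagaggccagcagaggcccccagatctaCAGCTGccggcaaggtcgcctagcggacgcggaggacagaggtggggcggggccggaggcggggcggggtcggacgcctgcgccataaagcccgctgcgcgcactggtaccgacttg
Ldha (chr7:46845554-46845853, plus strand): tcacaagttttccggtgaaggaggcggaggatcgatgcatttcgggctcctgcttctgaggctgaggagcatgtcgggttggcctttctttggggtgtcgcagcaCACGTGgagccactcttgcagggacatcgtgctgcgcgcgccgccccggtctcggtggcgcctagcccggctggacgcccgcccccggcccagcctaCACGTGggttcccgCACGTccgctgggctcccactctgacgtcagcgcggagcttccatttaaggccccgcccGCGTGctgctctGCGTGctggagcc
The Txnip window holds no CAGCTG and no CACGTG. Its 2 CACGAG words are separated by 5 bases, a spacing known from carbohydrate response elements, and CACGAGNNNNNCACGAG was found in 1 of 32851 promoter windows, that of Txnip. This pattern was chosen after the sequence was seen. Of the 9 genes called in siTfap4 against siNeg, Gpi1 alone held CAGCTG in its window.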

How the data were processed

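Counts per gene were used as deposited: the authors' table holds whole-number counts of QuantSeq 3′ mRNA reads for 8 libraries. Reads were trimmed with Trim Galore and the build was GRCm38, per the submitters' processing notes. The aligner, the counter, its strand setting and its annotation were not given in the sources used here. Libraries are described by the authors as biological duplicates, and p-values measure the spread between these libraries. The 32 genes and all other lists were chosen with earlier results of these data known. The genes given with values in all 8 libraries are those called in a comparison or in the test of the difference, those with at least a 2-fold change and no overlap between groups, the 3 with the highest mean, and Gapdh, Hif1a, Slc2a1 and Txnip; others were added where they complete a role, and from each other list up to 6 called genes. Some called genes of the other lists are not reported by name here.

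Genes were filtered with filterByExpr in edgeR 4.0.16 (R 4.3.3), which left 15137 genes, and scaled with TMM factors. A robust quasi-likelihood model with 4 group means was fitted to 8 libraries (4 residual degrees of freedom). The contrasts were KO minus WT, siTfap4 minus siNeg, and the first minus the second. Adjusted p-values are Benjamini-Hochberg over all tested genes with a threshold of 0.05. Errors are standard errors (SE) of the log2 fold change, and n is 2 libraries in each group. CPM values were computed here from the counts with the TMM-scaled library sizes of the tested genes. Alternatives were library totals without TMM factors, DESeq2 1.42.0, limma-voom (limma 3.58.1), no filter, a filter of 10 counts in 4 libraries, the 4 libraries of a comparison alone, a replicate block, each library left out in turn, and summing of genes that share 3′ ends. A correction for GC of the last 100 bases and a wider summing of shared ends were added after seeing the data. Shared ends were measured as 31-base words of the last 200 bases of annotated transcripts (GENCODE M21, GRCm38). The fit was tested on simulated data. One gene symbol, Aldoa, has 2 identifiers, of which the other held 0 counts.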

Additional observations from a re-analysis of the deposited data

How the results depend on the processing

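With 2 libraries a group, single libraries set many of the calls. Over the refits of the named genes' changes, 467 kept direction and call, 36 lost the call, 4 gained it and 25 changed sign. In KO against WT, the number of called genes among the 32 was 1, and 4 with only the 4 libraries of the comparison (Slc2a3, Pgam1, Slc16a1 and Pdk3), 2 with the GC correction and replicate block together, and 0 to 1 over the fits without one library. The median of the 32 in that comparison was −0.01 and ran from −0.174 to 0.0904 without one library. In siTfap4 against siNeg the 9 calls became 3 to 13, and for the difference of the changes the 7 became 4 to 9. With the GC correction, Dlat, Gpi1 and Pfkl lost their calls in siTfap4 against siNeg, and Pdk3 passed by rising. With the GC correction and the replicate block together, Dlat, Gpi1 and Pfkl were again not called. Pdk3, Bnip3 and Hk2 then passed by rising. The signs of small changes were not fixed. Over the fits without one library the KO against WT change ran from −0.167 to 0.477 for Gpi1, −0.074 to 1.74 for Txnip, −0.177 to 0.126 for Aldoa, −0.0441 to 0.103 for Hk2 and −0.191 to 0.0625 for Dlat, and the siTfap4 against siNeg change from −0.204 to 0.164 for Ldha and −0.0281 to 0.325 for Hk2. The Hk2 change in KO was −0.0103 with the GC correction and −0.0117 with that and the block. The Ldha change in siTfap4 was −0.0556 without TMM factors, −0.0081 with limma-voom, −0.0368 without a filter, −0.028 with 4 libraries, −0.0079 with the replicate block, and −0.0959 and −0.106 with the GC correction without and with the block. The causes were not tested. Calls over all genes in KO against WT went from 1506 to between 629 and 880 without one of its 4 libraries, and in siTfap4 against siNeg from 2334 to 522 without siTfap4 replicate 1 and 763 without siNeg replicate 1. With the replicate block, 1, 7 and 9 genes of the 32 were called in KO against WT, in siTfap4 against siNeg and for the difference; Slc16a3 (adjusted p = 0.0547) and Gpi1 (adjusted p = 0.0623) lost their calls. Same-numbered libraries share only a number: the correlation of their deviations from the group means was −0.06 in the untreated set and 0.13 in the siPOOL set. Pgk1 held 12 to 83 counts per library and Ankrd37 3 to 95, so counting error is largest, in relative terms, at these 2 of the 32 genes.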

Other observations

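The pentose phosphate pathway branches from glycolysis at glucose phosphate and returns sugars to it, and 8 of its 9 listed genes were tested. In siTfap4 against siNeg 2 rose and 2 fell, where 4.36% of all genes rose and 11.1% fell, and in KO against WT 1 rose, where 5.99% rose. Pgls, the lactonase of the oxidative arm, was 64.7 and 98.0 CPM in siNeg and 190.1 and 146 in siTfap4 (log2 fold change 1.05 ± 0.25 SE, adjusted p = 0.0113), and Tkt, transketolase of the return arm, was 145 and 123 CPM and then 260 and 202 (0.79 ± 0.25, adjusted p = 0.0458). H6pd, the oxidative enzyme of the endoplasmic reticulum, fell from 23.7 and 17.3 to 4.84 and 7.78 CPM (−1.70 ± 0.33, adjusted p = 0.00303), and Rpe fell from 82.2 and 63.9 to 23.1 and 50.7 CPM (−0.98 ± 0.32, adjusted p = 0.0459). In KO against WT, Rpia, which isomerises ribose phosphate, rose from 9.91 and 7.37 to 17.2 and 22.4 CPM (1.19 ± 0.34, adjusted p = 0.0339). G6pdx, Pgd and Taldo1 did not pass in either comparison.

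Of the 10 stem cell markers, 5 had positive and 5 negative log2 fold changes in siTfap4 against siNeg. By adjusted p, 1 rose and 2 fell, where 4.36% of all genes rose and 11.1% fell. Pou5f1 rose from 25.2 and 27.7 CPM in siNeg to 59.0 and 48.4 in siTfap4 (1.02 ± 0.25, adjusted p = 0.0121). Its level over the 8 libraries, 25.2 to 59.0 CPM, was low beside that of Sox2 (641 to 1031 CPM). Shared 3′ ends are reported here for the 32 genes alone, so how they bear on the Pou5f1 counts is not known. Nanog fell from 412 and 316 to 79.8 and 179 CPM (−1.49 ± 0.30, adjusted p = 0.00403). Dppa5a was 387 and 493 CPM in siNeg and 3.82 and 9.32 in siTfap4 (−6.05 ± 0.36, adjusted p = 1.39e-07), a larger fall than that of Txnip. KO cells appear in both sets. Gapdh was 63.7 and 53.2 CPM in the untreated KO libraries and 139 and 122 in the siNeg libraries, and Bnip3 was 81.0 and 42.8 CPM and 105 and 82.5. By the series' design text the untreated and the siPOOL libraries were 2 sets, so treatment and set cannot be told apart in these values.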
